A study of Mus musculus with 6 samples.

Results

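The 10 genes Ezh1, Ezh2, Eed, Suz12, Jarid2, Mtf2, Rnf2, Ring1, Pcgf6 and Kdm2b code for subunits of the Polycomb complexes. They were chosen by name, 10 of 21938 protein-coding genes, and every H3K4me3 and ASH2L peak that overlapped a gene body or the 5 kb upstream of it was taken. CUT&RUN was performed in the mouse line E14, embryonic stem cells kept in serum with LIF, in 6 samples of 3 groups with 2 samples each. HA-ASH2L E14 cells, whose genotype is given as HA-Ash2L knock-in, formed an anti-HA group and an anti-H3K4me3 group, and the third group was HA-tag CUT&RUN in parental E14 cells of WT genotype. All groups received doxycycline for 48 h, which induces the HA-Ash2L transgene in the cells that carry it. According to the methods, the transgene was inserted with a piggyBac vector and single colonies were picked, so that the line may be 1 clone and the HA signal is that of an induced, tagged protein. The labels give 1000000 cells for HA and 100000 for H3K4me3, whereas the methods give the former number for every experiment.

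In CUT&RUN, DNA is cut in permeabilized cells by a nuclease that an antibody brings to its target, and what is released is sequenced. The duplicates were merged before peak calling, so each peak has a single value, no spread between samples exists, and no test was made. Each list was called against a background within 10000 bp in the same library, without a control library. The parental HA samples were not analysed here, so that HA signal that does not come from ASH2L was not removed from the ASH2L list. The ASH2L list held 2464 peaks with 0.398% of 25677963 tags, and the H3K4me3 list held 59927 peaks with 45.7% of 27328071 tags. Tag counts are therefore compared only within a list.

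Polycomb proteins keep developmental genes silent in embryonic stem cells. PRC2 methylates histone H3 at lysine 27 through EZH2 or EZH1, and PRC1 ubiquitinates histone H2A through RNF2, also called RING1B, or RING1. H3K4me3 is the mark of promoters that the MLL/SET1 enzymes deposit, and ASH2L is a core subunit of these enzymes. The 10 genes therefore code for repressors, while the peaks report on the promoters of the genes themselves.

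H3K4me3 peaks lay at the start sites of most of these genes and ASH2L peaks at fewer of them. A start-site peak overlapped the 1000 bp before or the 100 bp after the start of a protein-coding transcript of the gene (GENCODE vM21 on GRCm38, also called mm10). By this rule 8 of 10 genes had an H3K4me3 start-site peak, against 67.0% of all protein-coding genes, and 4 of 10 had an ASH2L start-site peak, against 7.37%. The principal start is that of the transcript annotated as principal at the highest rank. Where no transcript has that rank, even if one is principal at a lower rank, it is the 5′ end of the gene. At this start Ezh1, Ezh2, Eed, Suz12, Rnf2 and Pcgf6 had an H3K4me3 peak, 6 of 10 against 64.5%. With principal transcripts of any rank the count was also 6. Within the gene body or 5 kb upstream, 29 H3K4me3 peaks lay at 9 of 10 genes, against 76.2% of all genes with such a peak. In the same regions 5 ASH2L peaks lay at 4 genes, against 10.4%. These were Ezh2, Suz12, Rnf2 and Kdm2b. The H3K4me3 counts lay near the shares of all genes and the ASH2L counts above them, over only 10 genes. These shares are not matched for the CpG content of the promoters, which is given below. With only peaks at or above the median fold enrichment of their list, the H3K4me3 start-site count was 0, against 34.4% of all genes, and 2 genes had an ASH2L peak, against 5.13%.

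**Figure D1:**
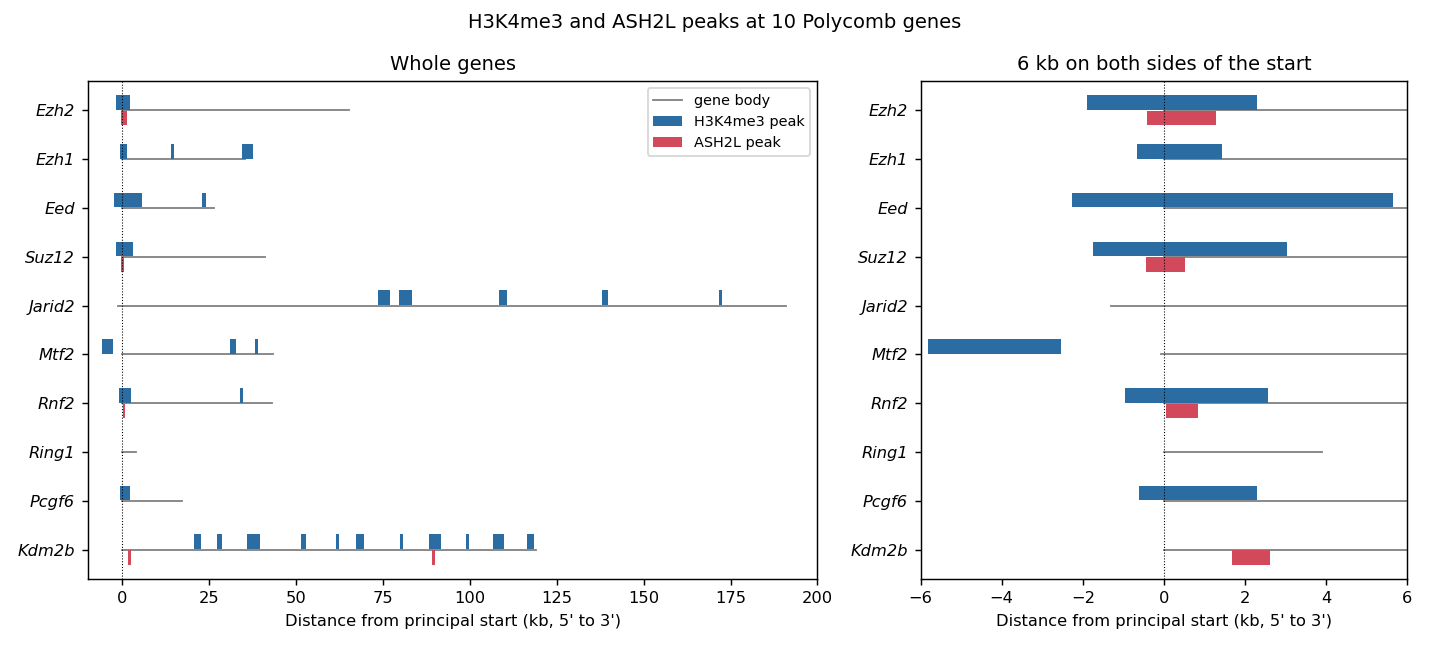
Position of each H3K4me3 peak (blue, above the line) and ASH2L peak (red, below the line) at the 10 genes, in kb from the principal start and read 5′ to 3′ along the gene, over whole genes on the left and over 6 kb on both sides of the start on the right. Blue bars cover the start at 6 genes, red bars lie at the start of Ezh2 and Suz12 and next to that of Rnf2, and Ring1 has no bar.

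The sequences upstream of the starts that carry this contrast are shown, 250 bases each, read 5′ to 3′ on the strand of the gene, with every CpG in capitals. They come from RefSeq (GRCm38.p6) and end at the base before a RefSeq start, except that of Ezh2, which was read from the same assembly upstream of the GENCODE start. The first 3 lie wholly inside an H3K4me3 peak and an ASH2L peak. Ezh2 is at chr6:47595342-47595591 on the reverse strand, Suz12 at chr11:79992856-79993105 on the forward strand, and the start inside the Kdm2b gene at chr5:122900368-122900617 on the reverse strand. The last 3 lie outside any peak. Jarid2 is at chr13:44730524-44730773 and Mtf2 at chr5:108065424-108065673, both on the forward strand, and Ring1 is at chr17:34024681-34024930 on the reverse strand.
Ezh2: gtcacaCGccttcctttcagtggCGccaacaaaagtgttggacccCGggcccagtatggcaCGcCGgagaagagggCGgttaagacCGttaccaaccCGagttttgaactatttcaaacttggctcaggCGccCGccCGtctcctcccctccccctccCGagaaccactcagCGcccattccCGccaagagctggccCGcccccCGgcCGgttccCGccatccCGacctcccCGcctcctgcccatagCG
Suz12: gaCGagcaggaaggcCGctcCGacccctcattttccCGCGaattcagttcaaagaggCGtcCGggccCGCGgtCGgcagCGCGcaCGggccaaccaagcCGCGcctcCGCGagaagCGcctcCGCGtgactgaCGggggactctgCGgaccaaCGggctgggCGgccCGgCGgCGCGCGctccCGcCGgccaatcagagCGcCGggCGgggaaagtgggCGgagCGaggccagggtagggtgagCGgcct
Kdm2b, start inside the gene: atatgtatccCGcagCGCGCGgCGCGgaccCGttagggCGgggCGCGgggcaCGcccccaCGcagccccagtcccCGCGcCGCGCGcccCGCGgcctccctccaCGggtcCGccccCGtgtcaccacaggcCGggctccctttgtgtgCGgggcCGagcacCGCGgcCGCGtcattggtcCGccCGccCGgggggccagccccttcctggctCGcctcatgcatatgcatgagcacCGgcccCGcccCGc
Jarid2: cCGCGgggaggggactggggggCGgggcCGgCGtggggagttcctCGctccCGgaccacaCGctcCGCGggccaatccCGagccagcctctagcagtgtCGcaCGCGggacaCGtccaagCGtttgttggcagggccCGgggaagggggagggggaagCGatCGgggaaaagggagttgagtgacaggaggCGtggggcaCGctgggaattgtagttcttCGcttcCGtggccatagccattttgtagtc
Mtf2: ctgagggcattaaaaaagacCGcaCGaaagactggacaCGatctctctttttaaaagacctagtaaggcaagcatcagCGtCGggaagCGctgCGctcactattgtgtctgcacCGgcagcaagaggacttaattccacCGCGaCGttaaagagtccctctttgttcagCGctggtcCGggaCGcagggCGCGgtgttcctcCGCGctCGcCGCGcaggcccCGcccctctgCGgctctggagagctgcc
Ring1: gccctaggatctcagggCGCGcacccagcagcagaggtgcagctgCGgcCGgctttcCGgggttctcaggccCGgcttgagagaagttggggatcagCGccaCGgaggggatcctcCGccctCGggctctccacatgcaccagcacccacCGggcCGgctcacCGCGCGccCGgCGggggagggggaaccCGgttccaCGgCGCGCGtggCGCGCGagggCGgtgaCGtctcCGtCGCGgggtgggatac
These stretches hold 21 CpG at Ezh2, 37 at Suz12, 36 at the Kdm2b start, 23 at Jarid2, 23 at Mtf2 and 30 at Ring1. The sequences outside peaks thus held more CpG than that of Ezh2 and fewer than those of Suz12 and the Kdm2b start. The 250 bases before the RefSeq starts of Ezh1, Eed, Rnf2 and Pcgf6, inside H3K4me3 peaks and not printed, held 14, 12, 20 and 14.

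Ezh2 codes for the main methyltransferase of PRC2 in embryonic stem cells and had the highest ASH2L tag count of the 10 genes. The gene spans 47530139 to 47595341 on chromosome 6, on the reverse strand, and its principal transcript has 20 exons. Its single H3K4me3 peak extended from 47593036 to 47597240, with a length of 4205 bp, 830 tags, a score of 676.96 and a fold enrichment over local background of 4.63. The score is 10 times −log10 of the p-value, so that the cutoff of 1e-05 is a score of 50. The summit lay 283 bp upstream of the principal start. Its tag count exceeded that of 90.1% of the 14907 H3K4me3 start-site peaks in the genome, and its fold enrichment that of 18.9%. The ASH2L peak, from 47594057 to 47595759, lay wholly within it, with 1703 bp, 82 tags and a fold enrichment of 5.41, and its summit fell in intron 1. In length it was above 99.4% of all ASH2L peaks, in tags above 98.4% and in score above 96.6%. The ASH2L peak of Ezh2 was thus among the widest of its list and lay within an H3K4me3 peak of high tag count and low fold enrichment.

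Ezh1 codes for the other methyltransferase, which is known as the PRC2 enzyme of cells that have stopped dividing. It lies on chromosome 11 from 101191115 to 101226463 on the reverse strand and had 3 H3K4me3 peaks and no ASH2L peak. The peak at the start extended from 101225037 to 101227121 and had 318 tags over 2085 bp and a fold enrichment of 5.58. With a tag count above 33.5% of start-site peaks, it was the smallest of the 6 peaks at principal starts, and it held fewer tags than the Ezh2 peak. An intronic peak of 737 bp in intron 6 had 37 tags. At the other end of the gene, a peak from 101188764 to 101191988 was longer than the one at the start, with 3225 bp and 276 tags, and its summit lay in exon 21, the last exon. The nearest ASH2L peak was 198460 bp from the start of Ezh1.

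Eed codes for the subunit that binds methylated lysine 27 and had the widest single peak of the 10 genes, which also held the most tags of any of their peaks. The gene lies on chromosome 7 from 89954654 to 89980983 on the reverse strand. Its start-site peak extended from 89975329 to 89983251 over 7923 bp and had 1356 tags. Among all start-site peaks it was above 99.6% in length and 99.5% in tags, but above only 5.53% in fold enrichment (3.66) and 1.97% in score (66.97). It also held the start of E230029C05Rik, so that tags of the neighbouring start are part of its value. A further peak of 1030 bp with 58 tags lay in intron 9. No ASH2L peak was listed at Eed, and the nearest was 148678 bp from its start. Peaks covered 28.6% of the Eed gene and its upstream region, the highest share of the 10 genes.

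Suz12 codes for the scaffold of PRC2 and had both a wide H3K4me3 peak and an ASH2L peak. The gene lies on chromosome 11 from 79993106 to 80034123 on the forward strand. Its only H3K4me3 peak extended from 79991357 to 79996138, with 4782 bp, 791 tags and a fold enrichment of 4.61, and the summit was 29 bp upstream of the start. The ASH2L peak from 79992654 to 79993636 lay wholly inside it and covered the sequence printed above. It had 983 bp, 47 tags, a fold enrichment of 5.82 and a score of 104.07, which was above 92.1% of ASH2L peaks. Its summit was 292 bp upstream of the start, whereas that of the Ezh2 ASH2L peak was 939 bp downstream. Of the core genes of PRC2, 4 of 4 thus had an H3K4me3 peak at the principal start, against 64.5% of all genes, and 2 of 4 had an ASH2L start-site peak, against 7.37%.

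Jarid2 and Mtf2 code for accessory subunits that help PRC2 to bind chromatin, and neither had a peak of either list at its principal start. Jarid2 is the longest of the 10 genes, on chromosome 13 from 44729474 to 44921643 on the forward strand. It had 5 H3K4me3 peaks, all at least 73553 bp downstream of the principal start at 44730774. The first pair, in intron 1, had 208 tags over 3347 bp and 244 tags over 3532 bp, with fold enrichments of 3.69 and 3.53. Another, from 44839108 to 44841341 in intron 2, had 194 tags and a fold enrichment of 3.38 and held the starts of 2 transcripts of the gene, of which 1 is coding. It is the start-site peak counted for Jarid2, with a tag count above 17.3% of start-site peaks. The peak with the highest score lay in intron 3, from 44868721 to 44870553, with 191 tags and a score of 315.20. The last had 67 tags and a summit in exon 7. Toward the 5′ side, the nearest peak ended 6630 bp upstream of the principal start and had 226 tags.

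Mtf2, the gene of a Tudor domain protein that binds CpG-rich DNA, lies on chromosome 5 from 108065674 to 108109004 on the forward strand. Its largest H3K4me3 peak was upstream of the gene, from 108059924 to 108063201, with 490 tags over 3278 bp and a fold enrichment of 3.27. The edge of this peak was 2541 bp from the principal start and its summit 5180 bp from it, and no annotated start of another gene fell inside. The peak was counted through the 5 kb upstream region and not as a start-site peak. In introns 9 and 12 lay peaks of 155 and 44 tags, and the former had a fold enrichment of 7.99. The nearest ASH2L peak was 2164989 bp away, the longest such distance of the 10 genes.

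Rnf2 and Ring1 code for the catalytic subunits of PRC1 and differed in the lists. Rnf2, on chromosome 1 from 151458004 to 151500955 on the reverse strand, had an H3K4me3 peak at its start from 151498396 to 151501923, with 513 tags over 3528 bp and a fold enrichment of 5.65. The start of Gm36527, a gene model without a coding transcript, was also inside it. An ASH2L peak from 151500106 to 151500893 lay wholly within the H3K4me3 peak, with 788 bp, 35 tags and a fold enrichment of 4.12. Its nearest edge was 62 bp downstream of the principal start, and it covered the starts of 3 other coding transcripts of Rnf2. A second H3K4me3 peak of 879 bp with 42 tags lay within the gene record, 3′ of the end of the principal transcript.

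Of the 10 genes, Ring1 alone had no peak of either list. It is the shortest, with 3889 bp on chromosome 17 from 34020792 to 34024680 on the reverse strand. The nearest H3K4me3 peak lay 5423 bp upstream of its start, from 34030103 to 34033530, just outside the 5 kb region. This peak had 593 tags and a fold enrichment of 4.58 and held the starts of Rxrb and Slc39a7. With 10 kb of upstream sequence it would count for Ring1, although it belongs by position to its neighbours.

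Pcgf6 codes for the PCGF subunit of a PRC1 form in which MGA and L3MBTL2 also take part. It lies on chromosome 19 from 47033617 to 47050906 on the reverse strand. Its single H3K4me3 peak extended from 47048610 to 47051512, with 576 tags over 2903 bp, and it had the highest fold enrichment (6.36) and score (791.35) of the start-site peaks of the 10 genes. Its tags per kb were above those of 93.5% of start-site peaks. No ASH2L peak was listed within 721241 bp of its start.

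Kdm2b codes for a protein with a CXXC domain that binds unmethylated CpG and brings a PRC1 form to CpG islands, and it had the most peaks. The gene lies on chromosome 5 from 122870665 to 122989823 on the reverse strand, with 23 exons in the longest principal transcript, Kdm2b-202. It held 11 H3K4me3 peaks, 0.886 per 10 kb, which is above 72.2% of all genes, and 2 ASH2L peaks. None of the 11 covered the principal start at 122989823. The largest in tags, from 122898259 to 122901714, had 562 tags over 3456 bp and a fold enrichment of 6.29 and lay at the start of the transcript Kdm2b-201, within intron 12 of Kdm2b-202. The second in tags, from 122950307 to 122953814 in intron 6, had 452 tags and held the starts of 3 transcripts, 1 of them coding. The next, with 323 tags, was in intron 17, with starts only of transcripts that are not annotated as coding, and the remaining peaks had 40 to 227 tags. The promoters of Kdm2b with an H3K4me3 peak in the list are thus those inside the gene.

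The ASH2L peaks of Kdm2b lay far apart, near the principal start and at the start inside the gene. The latter, from 122899979 to 122900723, had 35 tags over 745 bp and a fold enrichment of 4.16, covered the sequence printed above for the start inside the gene, and lay wholly within the H3K4me3 peak of 562 tags. The other, from 122987213 to 122988142, had 42 tags over 930 bp and a fold enrichment of 3.95. A RefSeq start of the gene, at 122988507, lay between the principal start and this peak. The summit of the peak lay in exon 2 of Kdm2b-202, 2033 bp downstream of the principal start, and no H3K4me3 peak overlapped the peak. It is the only ASH2L peak of the 10 genes without an overlapping peak in the H3K4me3 list. Both scores, 59.28 and 58.75, were below the median of the ASH2L list (61.53), while those of Ezh2, Suz12 and Rnf2 were above it. For comparison, 1567 of the 1616 genes with an ASH2L start-site peak (97.0%) also had an H3K4me3 start-site peak, as did 4 of 4 here.

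Set side by side, the 9 H3K4me3 start-site peaks of the 8 genes had low fold enrichments, and most were longer than the median. Their median length was 3508 bp, against 2752 bp over all start-site peaks, and their median tag count 562 against 424. Ezh1 (2085 bp) and Jarid2 (2234 bp) were shorter than the median of all. Their fold enrichments ran from 3.38 at Jarid2 to 6.36 at Pcgf6, and 9 of 9 lay below the list median of 6.46, against 49.8% of all 14907 start-site peaks. In tags the order was Eed, Ezh2, Suz12, Pcgf6, Kdm2b, Rnf2, the second Kdm2b start, Ezh1 and Jarid2. Since each value stands alone, no neighbours in this order can be said to differ.

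The median fold enrichment over the whole list was highest for peaks of 1000 to 2000 bp (7.22), with 6.46 for shorter ones, and was lower in each longer class. It was 6.62 for peaks of 2000 to 3000 bp, 5.58 for 3000 to 4000 bp, 4.76 for 4000 to 5000 bp and 3.56 for the 368 peaks of 7000 bp or more. In the last class the median score was 114.2, and 42.1% of the peaks scored under 100. Against peaks of like length, Ezh2 (4.63) and Suz12 (4.61) lay close to their class median of 4.76, Eed (3.66) close to 3.56, and Rnf2 (5.65) close to 5.58. Ezh1 (5.58) and the Jarid2 start inside the gene (3.38) lay below the 6.62 of their class. Pcgf6 (6.36) was also below 6.62, and the Kdm2b peaks (6.29 and 6.04) were above 5.58. Jarid2 lay farthest below the median of its class. The background was taken within 10000 bp and the longest peak had 8609 bp, and the part of this in the trend was not tested.

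**Figure D2:**
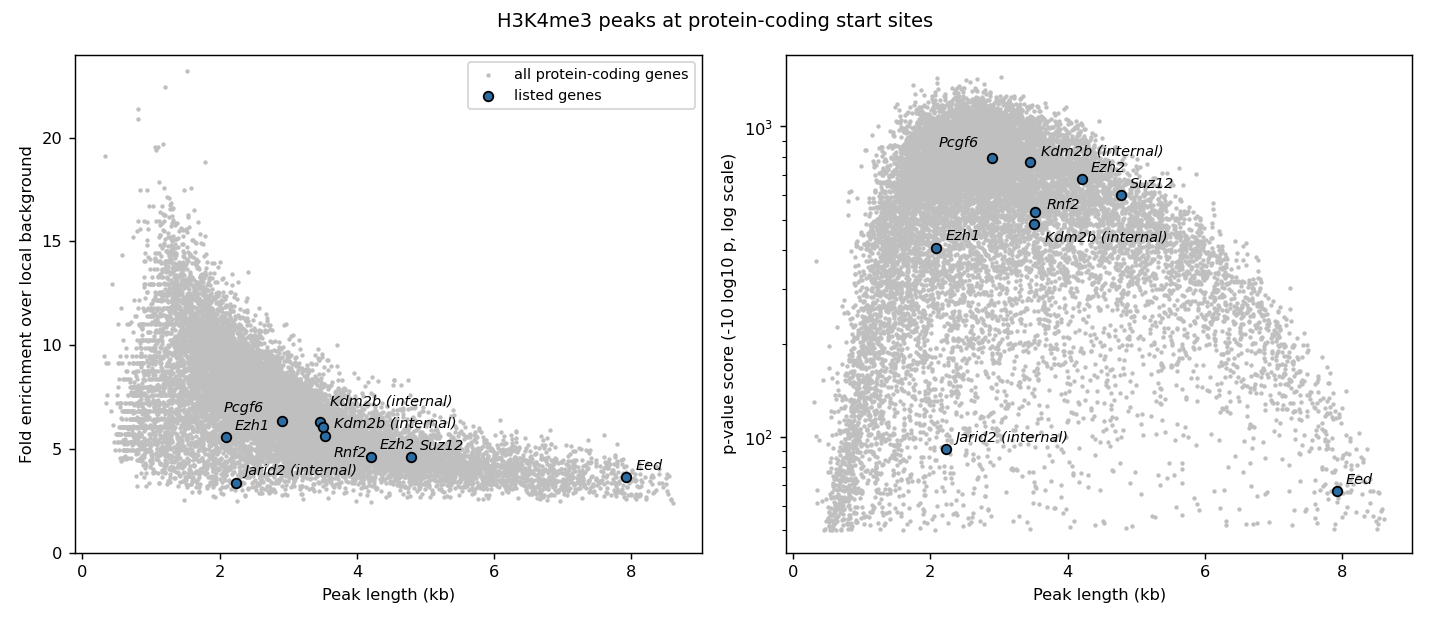
Length in kb of each H3K4me3 peak at a protein-coding start (grey points, 14907 peaks) against its fold enrichment over local background (left) and its p-value score on a log axis (right), with the 9 start-site peaks of the Polycomb genes in blue. Above about 2 kb the fold enrichments are lower the longer the peak, Eed lies at 7923 bp with a score of 66.97, and Jarid2 lies at the lower edge of the points of its length.

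The promoters of most of these genes were rich in CpG, also at Jarid2, Mtf2 and Ring1, where no peak lay. In the 250 bp before and 50 bp after the principal start, the ratio of observed to expected CpG had a median of 0.851, against 0.547 over all protein-coding genes. Genes with an H3K4me3 peak at the principal start had a median of 0.731 and genes without one 0.169. Suz12 had the highest ratio (1.09), followed by Mtf2 (1.03), Ring1 (0.910), Pcgf6 (0.889), Ezh1 (0.882), Rnf2 (0.820), Ezh2 (0.815), Jarid2 (0.810), Eed (0.759) and Kdm2b (0.630). The Kdm2b promoter held 9 CpG, fewer than the median of 12 over all genes. This value depends on the start used. The 250 bases before the RefSeq start of Kdm2b at 122989099, also outside any peak, held 27 CpG with a ratio of 1.00. Those before the RefSeq start at 122988507, outside any peak as well, held 12 CpG with a ratio of 0.660. Of all genes with a ratio of 0.8 or more, 5525 of 5825 (94.8%) had an H3K4me3 peak at the principal start, and of the 8 Polycomb genes in that class 5 had one. Mtf2, Ring1 and Jarid2 were the exceptions. These 3 thus belong to 300 genes in the genome with such a promoter and no peak listed at its start. An ASH2L peak at the principal start was present at 12.7% of all genes with a ratio of 0.8 to 1.0. At 1.0 or more the share was 13.1%. Of the Polycomb genes with a ratio of 0.8 or more, Ezh2, Suz12 and Rnf2 had such an ASH2L peak.

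**Figure D3:**
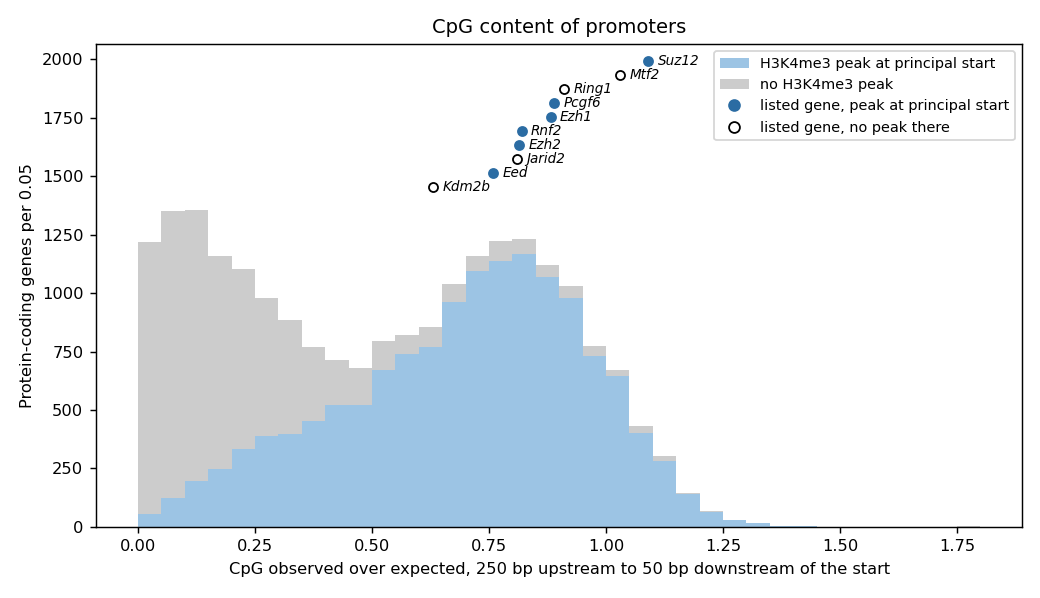
Number of protein-coding genes (vertical axis) by the ratio of observed to expected CpG around the principal start (horizontal axis, classes of 0.05), stacked for genes with (blue) and without (grey) an H3K4me3 peak there, with the 10 Polycomb genes as points at arbitrary height and the 2 genes beyond the axis in the last class. Mtf2, Ring1 and Jarid2 (open points) lie at ratios of 0.810 to 1.03, where grey is a thin layer on the blue.

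The letters of common promoter motifs were counted in the same windows on both strands. GGGCGG, the core of an SP site, was present at 7 of 10 genes, against 44.7% of all promoters, and CCAAT, the letters of an NF-Y site, at 3 of 10 (Eed, Suz12 and Jarid2) against 38.8%. TTTCCCGC, an E2F form, was present at Suz12 and Mtf2 and in 1.41% of all promoters. CCGGAAG, an ETS form, was present at Kdm2b and in 11.1% of all promoters. GCATGCGC (3.79% of all promoters), AAGATGG (6.19%), CACGTG (7.79%), TATAAA (12.6%) and TTTGGCGC (0.697%) had no match at any of the 10 genes. The matches depend on the start and window used, since the 250 bases before the RefSeq start of Ezh2 held CCAAT 3 times and no GGGCGG, and those before the RefSeq start of Eed held no CCAAT. Likewise, the Mtf2 sequence printed above held no TTTCCCGC, and the 250 bases before the RefSeq start of Jarid2 at 44731271 held TATAAA. Such matches describe letters only.

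For the 4 genes without a peak at the principal start, the stretch between the nearest H3K4me3 peaks on both sides was measured. It had 80182 bp at Jarid2, 33627 bp at Mtf2, 33347 bp at Kdm2b and 29021 bp at Ring1, and that of Kdm2b held an ASH2L peak. Such a stretch, with a peak on both sides, could be measured for 7639 of the 7798 genes without a peak at the principal start, with a median of 115264 bp, and for 295 of the 300 with a CpG ratio of 0.8 or more, with a median of 30499 bp. Jarid2 thus lay in a longer stretch than the median of genes with such a promoter, Mtf2 in a slightly longer one and Ring1 in a slightly shorter one. All 4 stretches were shorter than the median over all genes without a peak at the principal start.

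A missing entry in the list does not show that a promoter lacked H3K4me3. The pluripotency genes Pou5f1, Nanog and Sox2, which define embryonic stem cells, had no start-site peak either, and the nearest peaks were 7016, 10597 and 25135 bp from their principal starts. Klf4, another pluripotency gene, had a peak of 5917 bp with 1239 tags and the neural gene Neurod1 one of 6813 bp with 1022 tags, whereas the liver gene Alb had none. The defining genes of this cell type are thus in part absent from the list. The cause was not tested, and the missing peaks of Jarid2, Mtf2, Ring1 and the Kdm2b principal start cannot be told apart from such absences.

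The other Polycomb genes were read from a list of 38, all of which were found in the annotation. An H3K4me3 start-site peak was present at 33 of 38, against 67.0% of all genes. An ASH2L peak lay in the gene or 5 kb upstream at 5 of 38, near the 10.4% of all genes. With only peaks at or above the list median in fold enrichment, 12 of 38 had an H3K4me3 start-site peak, against 34.4%. With a score of 100 or more, 1 of 38 had an ASH2L peak, against 1.08%. Without these limits, the 42 H3K4me3 start-site peaks of the other Polycomb genes had a median length of 3698 bp, 564 tags and a fold enrichment of 5.23. Of these peaks, 66.7% lay below the list median in fold enrichment. Length and tags were thus close to those of the 10 genes, with a wider range of 1191 to 8134 bp.

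The counts by role, each over few genes, are read against the same shares of all genes. The other core and accessory genes of PRC2 had H3K4me3 start-site peaks at 6 of 7 genes and no ASH2L peak. Epop, a PRC2 accessory gene, had 1441 tags over 8107 bp, which exceeded Eed in both, and Rbbp4, a histone-binding subunit, 924 tags. Aebp2, which works with Jarid2 in 1 form of PRC2, had no start-site peak, and its nearest peak lay 4363 bp from its principal start. Of the other PCGF genes, 4 of 5 had a start-site peak and Pcgf2 did not (nearest peak 10092 bp). Pcgf5 also had an ASH2L peak of 54 tags with a fold enrichment of 5.38.

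Among the CBX, PHC and SCM genes of canonical PRC1, 8 of 10 had a start-site peak. The nearest peak to the principal start of Phc1, which had no start-site peak, lay 15017 bp away. Cbx7, the main CBX gene of embryonic stem cells, had 740 tags and an ASH2L peak of 36 tags. The partners of variant PRC1 had start-site peaks at 12 of 12 genes, among them Rybp (1102 tags over 8134 bp) and Usp7 (1172 tags over 7520 bp). ASH2L peaks were listed at Usp7 (27 tags), at E2f6 (32 tags) and at Auts2, whose 2 peaks of 20 and 28 tags lay away from its coding starts. Of the PR-DUB genes, which code for the complex that removes the PRC1 mark, 3 of 4 had a start-site peak and Asxl2 did not (nearest peak 8888 bp). With 82 tags, the Ezh2 ASH2L peak exceeded each of these ASH2L peaks.

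**Figure D4:**
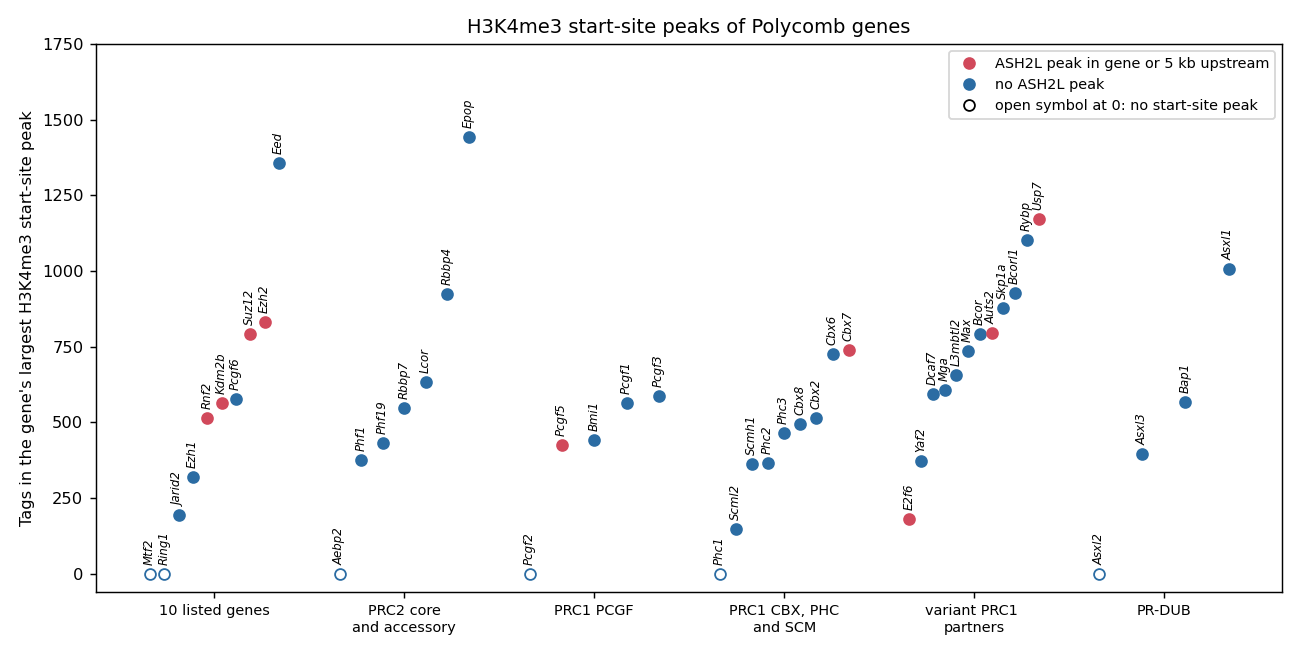
Tags in the largest H3K4me3 start-site peak of each Polycomb gene (vertical axis, unnormalized counts of the merged libraries) for the 10 genes and for the other Polycomb genes, 1 of which is not drawn, in 5 groups by role, ordered by value within a group. Red points are genes with an ASH2L peak in the gene or 5 kb upstream and open points at 0 are genes without a start-site peak, which occur in 4 of the 5 other groups; Eed and Epop are highest with 1356 and 1441 tags.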

How the data were processed

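CUT&RUN libraries of E14 cells were mapped by the authors to mm10 with Bowtie2, and per the labels SAMtools 1.5, bedtools and HOMER 4.10 were also used. The duplicates were merged before peak calling. The file headers name MACS 1.4.3 without a control library, a p-value cutoff of 1e-05 and 1 tag kept per position. The methods state that only short fragments were kept, but the headers give tag sizes of 151 bp (ASH2L) and 142 bp (H3K4me3), so that the fragments counted are not settled. Deposited tag counts are unnormalized whole numbers of tags of the merged libraries within each peak. The fold enrichment, as deposited, is the ratio of summit tags to a background that MACS modelled from the same library. The deposited score is 10 times −log10 of the p-value. Peak length and summit are the authors' positions.

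From these lists, peaks were placed on GENCODE vM21 genes of GRCm38 with an overlap of at least 1 bp. Percentiles, shares and CpG ratios were computed in Python 3.11.15 with pandas 2.3.3, numpy 2.4.6 and pysam 0.24.0, and drawn with matplotlib 3.10.9. Overlap code was tested on simulated data. Epop, Rbbp4, Rbbp7, Rybp, Bcor and Scml2 were named after their values were seen. The rule set otherwise named the 10 genes and genes whose start lay in a peak of these. Of the 38 others it named those with an ASH2L peak or without a start-site peak. Of the genes so chosen, 1 is not reported here. Genes and lists were chosen with earlier results of these data known. Alternatives covered peak thresholds, overlap, windows, gene regions and transcript sets. No test was made, since the merged lists hold no replicates. Tags are not normalized between lists, and the depth of single samples is unknown. The parental HA samples were not used here.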

Additional observations from a re-analysis of the deposited data

How the results depend on the processing

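For 13 results, 58 alternative values were computed, and 46 stayed within 1.5 times of the reported value. The other 12 came from stricter peaks. With only peaks at or above the median fold enrichment of their list, 0 of the 10 genes kept an H3K4me3 start-site peak and 0 a peak at the principal start, 7 of 29 H3K4me3 peaks and 2 of 5 ASH2L peaks remained, and 2 genes had an ASH2L peak. Of the other Polycomb genes, 12 had an H3K4me3 start-site peak. Over all genes the shares were then 34.4% for H3K4me3 start-site peaks and 5.13% for ASH2L. Median length, tags and fold enrichment could not be computed there, as no start-site peak was left. With a score of 100 or more, 2 ASH2L peaks at 2 genes remained, 1 other Polycomb gene had an ASH2L peak, and the share of all genes with ASH2L was 1.08%. At that score 6 genes had an H3K4me3 start-site peak and 5 a peak at the principal start. With basic transcripts only, an alternative added after seeing the data, 7 genes had a start-site peak, as the start inside Jarid2 is not basic. The alternatives for the principal start were also added then. No paired analysis was possible because the deposited lists hold 1 merged value per peak, and for the same reason leaving out a replicate was not possible.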

Other observations

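Among the other Polycomb genes, Auts2, a partner of variant PRC1, had 30 H3K4me3 peaks in the gene or 5 kb upstream, and Bcor, a corepressor of variant PRC1, had 12. These counts are not scaled to the length of the genes. Bcor and Scml2 were named after their values were seen. Of the 3 Bcor start-site peaks, 1 had the lowest fold enrichment of the 38 genes (2.64), with 792 tags over 6620 bp. Scml2, on chromosome X, had a start-site peak of 146 tags with the highest fold enrichment (13.29), and its nearest peak to the principal start was 45053 bp away. Over all protein-coding genes, the share with an ASH2L peak at the principal start was 0.236% where the CpG ratio of the promoter was under 0.2 and 13.1% where it was 1.0 or more, and the share with an H3K4me3 peak was 12.2% and 94.7% in the same classes. These are values of genes, which are not replicates.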
